A study of Mus musculus with 12 samples.

Results

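The SLC25 mitochondrial carrier family was described across mouse heart libraries. Its members were taken as the rows of the deposited table whose gene symbol is Slc25a followed by a number, with 1 gene left out. This gave 46 carriers of 30199 genes. The hearts came from C57BL/6J mice in 4 groups of 3 libraries. The first group was labelled sorafenib_plx3397 and received sorafenib for 28 days together with PLX3397, the second was labelled sorafenib and received sorafenib alone for 28 days, the third was labelled plx3397, and the last was the control, labelled ctrl. Sorafenib blocks several kinases and is a cancer drug, and PLX3397 blocks CSF1R, the receptor on which tissue macrophages depend. The series' design text speaks of macrophage clearance agents, and the comparisons ask how the heart under sorafenib differs with and without them. The labels give no dose, sex or age and do not say whether a library is 1 animal, so the p-values measure only the spread between these samples, which may be technical.

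SLC25 proteins are carriers of the inner mitochondrial membrane, related to one another in sequence, that exchange nucleotides, phosphate, carboxylates, amino acids and cofactors between the matrix and the cytosol. In the heart they return ATP to the contractile machinery, supply phosphate to ATP synthase and move reducing equivalents through the malate-aspartate shuttle. A few members sit elsewhere, among them SLC25A46 in the outer mitochondrial membrane and SLC25A17 in peroxisomes.

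Total estimated counts were 61626404 to 64537365 per library, and genes of the mitochondrial genome took 29.2% to 33.6% of them. Summed over 8 cardiomyocyte markers, the level was 39153 to 47426 CPM (the count scaled to library size, here by TMM, the trimmed mean of M values) in hearts given both agents, 37840 to 41121 CPM with sorafenib, 33631 to 37780 CPM with PLX3397 and 33214 to 36007 CPM in controls. Summed over 10 macrophage markers, it was 192 to 272 CPM with both agents, 276 to 487 CPM with sorafenib, 495 to 572 CPM with PLX3397 and 528 to 689 CPM in controls. None of the 10 macrophage markers passed the threshold in the libraries labelled plx3397 against controls, where 0 of all 18897 genes tested passed. Only 1 of the 10 had a log2 fold change above 0 there, and their median was -0.19. In these whole hearts, fewer cells of a type and less RNA per cell cannot be told apart.

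The family's levels covered a wide range and were led by the carriers of oxidative phosphorylation. Slc25a4, the ADP/ATP carrier of heart and skeletal muscle, had the highest mean over the 12 libraries at 1525 FPKM, the authors' values per length of gene and library size. It made up 63.6% to 69.3% of the summed FPKM of the family in a library. Slc25a3, the phosphate carrier, followed with 211 FPKM and Slc25a11, the oxoglutarate-malate carrier of the malate-aspartate shuttle, with 202 FPKM. The libraries of these 2 genes overlapped, so their order is not separated by the spread. Slc25a5, the second ADP/ATP carrier, averaged 97.1 FPKM and Slc25a34, a carrier whose substrate is not named here, 57.8 FPKM. Slc25a13 and Slc25a39 overlapped at 28.8 and 27.3 FPKM, and Slc25a12 came next at 18.7 FPKM. The whole family took 0.716% to 0.837% of the FPKM of nuclear genes. Of the 46 carriers, 10 had a mean of at least 10 FPKM, 33 of at least 1 FPKM and 6 of less than 0.1 FPKM. The 6 lowest were Slc25a43 at 0.0480 FPKM, Slc25a2, an ornithine carrier, at 0.0396 FPKM, Slc25a21, the oxodicarboxylate carrier, at 0.0171 FPKM, Slc25a41 at 0.0142 FPKM, and Slc25a48 and Slc25a54 at 0.00138 FPKM each. Each of these 6 was at 0 in at least 1 library. Slc25a31, the ADP/ATP carrier known from testis, averaged 0.157 FPKM.

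**Figure D1:**
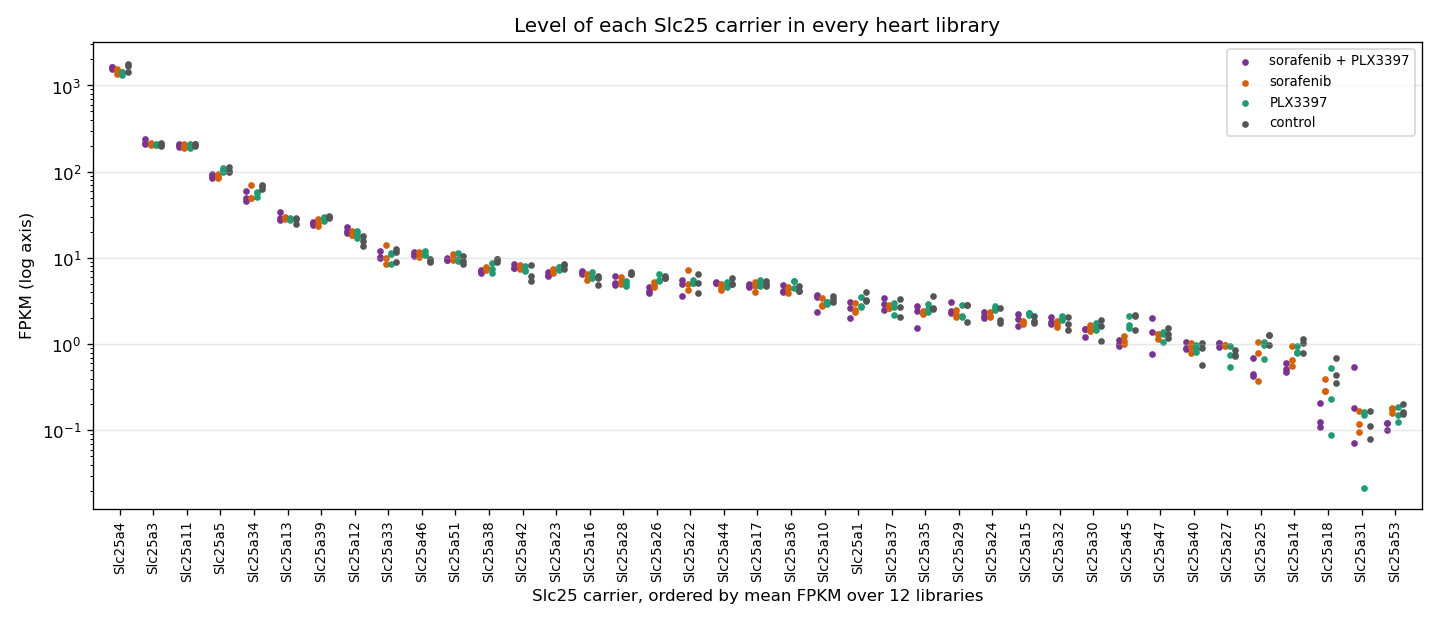
FPKM of 39 Slc25 carriers above 0 in every library, on a log axis and ordered by mean level. Each point is 1 library, coloured by group, and the means run from 1525 FPKM for Slc25a4 to 0.154 FPKM for Slc25a53.

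The filter on low counts left 42 carriers to test, and Slc25a2, Slc25a41, Slc25a48 and Slc25a54 were not tested. Counts of carriers below are over those 42, with p-values from edgeR adjusted over all 18897 genes tested and a threshold of 0.05. Sorafenib with PLX3397 was set against controls first, as the widest contrast, and 10 carriers passed, 6 higher and 4 lower. This is 23.8% of the tested carriers, and 16.1% of all genes passed there, 7.97% higher and 8.14% lower. Higher carriers were Slc25a12, Slc25a46, Slc25a16, Slc25a42, Slc25a3 and Slc25a13. Lower carriers were Slc25a45, Slc25a26, Slc25a25 and Slc25a14. The median log2 fold change was 0.11 over the carriers and -0.02 over all genes, and the carriers' median was 0.06 without replicate 1 of both agents. The count was 6 without PLX3397 replicate 2, 4 without control replicate 2 or without replicate 2 of both agents, 3 without control replicate 3 and 2 without replicate 1 of both agents. The 3046 genes behind that 16.1% fell to 1701 and 1278 without control replicates 2 and 3, and to 1308 and 1805 without replicates 1 and 2 of both agents.

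The sorafenib effect was also averaged over hearts with and without PLX3397, as the mean of both sorafenib groups against the mean of both groups without it, 6 libraries against 6. Here 7 carriers passed, 5 higher and 2 lower, which is 16.7% of those tested, against 11.9% of all genes, 5.62% higher and 6.32% lower. Slc25a12, Slc25a46, Slc25a27, Slc25a42 and Slc25a3 were higher, and Slc25a45 and Slc25a26 were lower. The median log2 fold change was 0.03 over the carriers and -0.01 over all genes, and the carriers' median ranged between 0.01 without sorafenib replicate 3 and 0.08 without control replicate 1. The 2 contrasts share the libraries of both agents and the controls, and 6 carriers passed in both. Leaving out control replicate 3, replicate 2 of both agents, or sorafenib replicate 1 or 3 gave 4 calls. Leaving out PLX3397 replicate 1, replicate 1 of both agents or sorafenib replicate 2 gave 3. Over all genes the 2257 calls fell to 1479 without control replicate 3, 1396 without PLX3397 replicate 1 and 1406 without replicate 1 of both agents.

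In the single pairs fewer carriers passed. For sorafenib alone against controls only Slc25a46 passed, 1 of 42 or 2.38%, where 2.65% of all genes passed. With Slc25a46, 9 of 42 carriers had an unadjusted p under 0.05, as did 21.7% of all genes. The number of carriers passing the threshold was 0 without control replicate 2, control replicate 3 or any 1 of the 3 sorafenib libraries. It was 2 without PLX3397 replicate 1 and 3 without control replicate 1. The 500 genes behind that 2.65% moved as well, to 24 without sorafenib replicate 1, 178 without sorafenib replicate 2, 45 without control replicate 3, 85 without control replicate 2, 1352 without control replicate 1, 331 and 1187 without PLX3397 replicates 2 and 1, and 317 without replicate 2 of both agents. When both agents were set against PLX3397, edgeR called 0 carriers and 3.23% of all genes. At an unadjusted p under 0.05 there were 10 carriers and 15.95% of all genes. The Wald test of DESeq2 called 4 carriers (Slc25a45, Slc25a26, Slc25a4 and Slc25a3) and 1207 of the 17045 genes it gave an adjusted p. The count of carriers in edgeR was 1 without control replicate 1, control replicate 3 or replicate 2 of both agents. The 611 genes behind that 3.23% fell to 176, 392 and 321 without replicates 1, 2 and 3 of both agents and to 223, 315 and 347 without those of PLX3397.

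How a library was scaled decided the balance of higher and lower calls. TMM sets the typical gene to no change, and its factors were 0.933 to 0.980 with both agents, 0.938 to 0.995 with sorafenib, 1.01 to 1.05 with PLX3397 and 1.02 to 1.09 in controls. Scaling by library size alone moved the median log2 fold change of all genes to -0.16 for both agents against controls and to -0.12 for the averaged effect. The carriers' median turned to -0.02 and -0.08 in these contrasts, and limma on log2(FPKM + 0.5) gave -0.02 and -0.05. The split with both agents against controls was then 2 higher and 7 lower, in place of 6 and 4. For the averaged effect it was 0 higher and 8 lower, in place of 5 and 2, and limma on log2(FPKM + 0.5) gave the same 0 and 8. The FPKM values are scaled by library size too, so limma on them is not a separate scaling. The split of all genes moved the same way for the averaged effect. It was 376 higher and 2524 lower under library size and 330 and 2462 with limma, in place of 1062 and 1195. Under each of TMM, DESeq2 size factors, TMM without mitochondrial genome genes, library size and limma on FPKM, Slc25a45 and Slc25a26 were called lower in both contrasts. Under these scalings, too, Slc25a12 and Slc25a46 were called higher with both agents against controls. The other higher calls, with those of both genes for the averaged effect, were not made under library size or limma on FPKM. Every one of these scalings gives relative levels, set against the typical gene or the library total. No carrier called in a contrast turned its sign under any alternative.

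**Figure D2:**
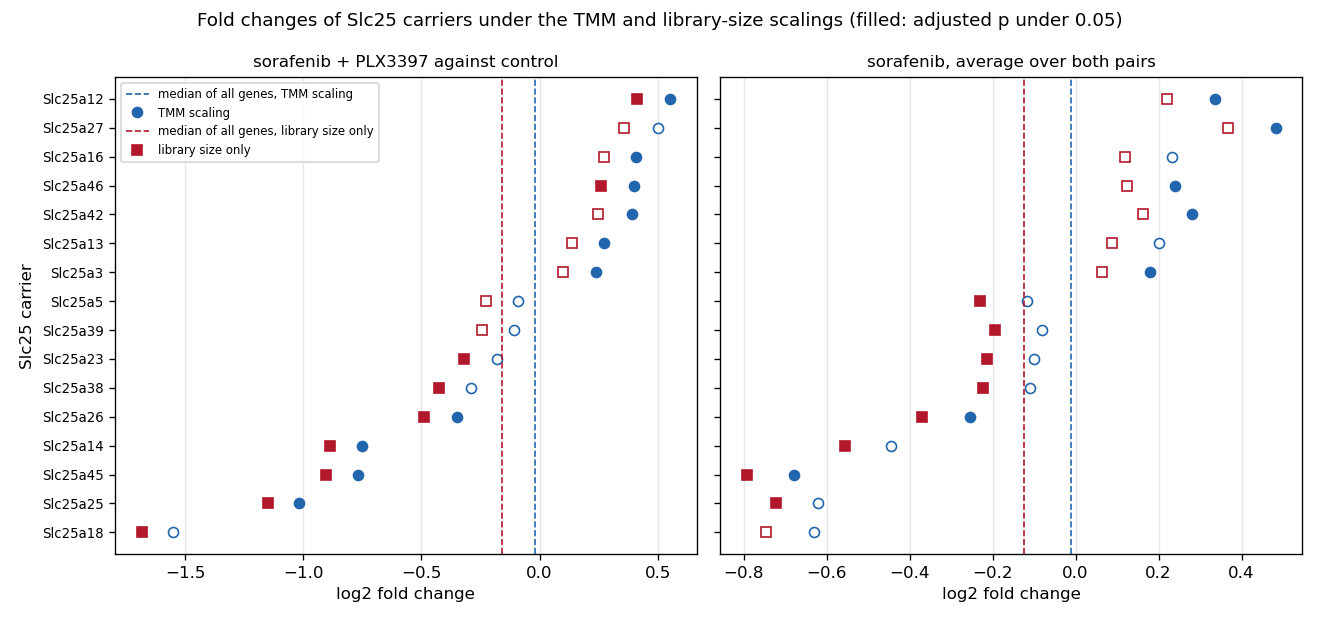
log2 fold changes of the 16 carriers called in either contrast under either scaling, with TMM scaling (circles) or library size only (squares), filled where the adjusted p was under 0.05; dashed lines mark the median of all genes. Scaling by library size moves every carrier to the left, and Slc25a12 and Slc25a46 are the 2 carriers whose squares are filled above 0, in the left panel.

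Both aspartate-glutamate carriers were called higher in hearts given both agents against controls, Slc25a12 under every scaling and Slc25a13 close to the threshold and not under all of them. These calcium-regulated proteins export aspartate from mitochondria in exchange for glutamate and so drive the malate-aspartate shuttle. Slc25a12 (chromosome 2, 71271063 to 71367749, minus strand, mm10), the aralar form found in heart, muscle and brain, had 191, 176 and 161 CPM with both agents, 152, 176 and 149 CPM with sorafenib, 129, 152 and 158 CPM with PLX3397 and 131, 124 and 105 CPM in controls. Every control lay below every library of either sorafenib group, and the PLX3397 libraries spread across the gap. Its log2 fold change was 0.55 ± 0.11 (SE) for both agents against controls, 1.47-fold with an adjusted p of 0.00528. The averaged effect was 0.34 ± 0.08 with an adjusted p of 0.0122, and sorafenib alone against controls gave 0.41 ± 0.11 with an adjusted p of 0.0571. Both calls were kept without any 1 of the 12 libraries. Under library size only the averaged effect was 0.22 with an adjusted p of 0.0548.

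Slc25a13 (chromosome 6, 6041218 to 6217173, minus strand), the citrin form known for its part in liver, had 147, 128 and 118 CPM with both agents, 121, 129 and 125 CPM with sorafenib, 115, 114 and 114 CPM with PLX3397 and 108, 118 and 98.5 CPM in controls. The sorafenib libraries lay above all controls, whereas replicate 3 of both agents fell within the control range. The log2 fold change for both agents against controls was 0.27 ± 0.09 with an adjusted p of 0.0495, and the averaged effect was 0.20 ± 0.06 with an adjusted p of 0.0510. The call with both agents was kept in 4 of the 12 fits that leave out a library, with values of 0.18 without replicate 1 of both agents and 0.21 without control replicate 3 at the low end. Library size only gave 0.14 with an adjusted p of 0.319 and limma on log2(FPKM + 0.5) gave 0.13 with an adjusted p of 0.328. The Slc25a13 call was also lost with no filter, with the replicate block and with only the groups compared, at adjusted p of 0.0691, 0.0624 and 0.0852. The related glutamate carriers were not called by edgeR with TMM scaling. Slc25a22 had 37.7, 35.3 and 24.5 CPM with both agents, 28.5, 35.3 and 47.6 CPM with sorafenib, 31.8, 36.1 and 32.2 CPM with PLX3397 and 39.4, 33.1 and 24.6 CPM in controls, so its groups overlapped. Slc25a18 was near the floor of the data, at 0.253 to 0.483 CPM with both agents and 0.713 to 1.43 CPM in controls, a log2 fold change of -1.55 ± 0.55 with an adjusted p of 0.0676. The Wald test of DESeq2 and the library-size scaling called it lower.

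The 250 bases before the RefSeq start of both aspartate-glutamate carriers are printed because the pair moved the same way with both agents (RefSeq, GRCm38.p6, the assembly also named mm10; 5′ to 3′ on the gene's strand). Capitals mark the E-box CACGTG, the motif bound by clock proteins and other basic helix-loop-helix factors. It was searched on both strands, and it stands 125 bases before the Slc25a13 start and not in the Slc25a12 window.
Slc25a12, chr2:71367756-71368005, minus strand: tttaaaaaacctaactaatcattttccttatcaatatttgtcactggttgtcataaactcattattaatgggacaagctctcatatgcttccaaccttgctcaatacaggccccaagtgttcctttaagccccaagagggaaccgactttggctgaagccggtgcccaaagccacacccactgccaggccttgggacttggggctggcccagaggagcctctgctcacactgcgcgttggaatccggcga
Slc25a13, chr6:6217174-6217423, minus strand: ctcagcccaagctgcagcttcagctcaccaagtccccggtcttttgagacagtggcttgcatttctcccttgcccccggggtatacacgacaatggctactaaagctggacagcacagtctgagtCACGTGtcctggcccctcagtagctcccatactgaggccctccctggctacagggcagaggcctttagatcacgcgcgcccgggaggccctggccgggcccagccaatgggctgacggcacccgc

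Of the 46 carriers, 35 had a RefSeq promoter entry, and 7 of these held CACGTG, against 6.86% of all genes with an entry. The 7 were Slc25a1, Slc25a13, Slc25a14, Slc25a15, Slc25a31, Slc25a33 and Slc25a36. Their log2 fold changes for both agents against controls went in both directions, with Slc25a13 at 0.27 and Slc25a14 at -0.75 as the called ones. The core motif of NRF1 was in 2 carriers, Slc25a3 and Slc25a31, or 5.71% against 4.23% of all genes. The cyclic AMP response element TGACGTCA was also in 2, Slc25a25 and Slc25a36, or 5.71% against 1.77%. The element TCAAGGTCA of estrogen-related receptors was in 0 of 35 and in 0.422% of all genes. A match is a run of letters only, and the genes compared were not matched for base composition. Of the 11 clock genes listed, 7 were higher and 2 lower for the averaged sorafenib effect, against 5.62% and 6.32% of all genes. The clock genes had a median log2 fold change of 0.83, and their part in the carriers' values was not tested.

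Among the 7 cofactor carriers, Slc25a42 and Slc25a16 were called higher and Slc25a26, the carrier of S-adenosylmethionine, lower for both agents against controls. Slc25a42 brings coenzyme A into the matrix. It had 57.7, 53.4 and 51.2 CPM with both agents, 49.4, 55.3 and 55.1 CPM with sorafenib, 43.5, 47.3 and 51.5 CPM with PLX3397 and 50.1, 39.9 and 33.8 CPM in controls. All libraries with both agents lay above the controls, by a narrow margin over control replicate 1. Its log2 fold change was 0.39 ± 0.12 with an adjusted p of 0.0395 for both agents against controls and 0.28 ± 0.08 with an adjusted p of 0.0444 for the averaged effect. Without control replicate 3 these fell to 0.27 and 0.22, and the averaged call was kept in 2 of 12 fits that leave out a library. Under library size only the 2 values were 0.25 and 0.16, with adjusted p of 0.198 and 0.241.

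Slc25a16, a carrier linked to mitochondrial coenzyme A, had 38.2, 39.0 and 35.0 CPM with both agents, 30.0, 36.2 and 33.2 CPM with sorafenib, 29.5, 31.2 and 34.8 CPM with PLX3397 and 28.1, 31.9 and 24.4 CPM in controls. The libraries with both agents were above every control and every PLX3397 library. The log2 fold change against controls was 0.41 ± 0.11 with an adjusted p of 0.0215. The call was lost without control replicate 3 (0.32), replicate 1 of both agents (0.39) or replicate 2 of both agents (0.37). Library size only gave 0.27 with an adjusted p of 0.0845. The averaged effect was 0.23 with an adjusted p of 0.0608 under TMM.

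Slc25a26 (chromosome 6, 94500331 to 94604672, plus strand) imports S-adenosylmethionine, the methyl donor, into mitochondria. It had 22.6, 26.0 and 21.3 CPM with both agents, 28.1, 25.8 and 25.6 CPM with sorafenib, 32.6, 27.8 and 28.4 CPM with PLX3397 and 28.4, 31.3 and 29.4 CPM in controls. Every sorafenib library, with or without PLX3397, lay below every control. The log2 fold change was -0.35 ± 0.10 with an adjusted p of 0.0269 for both agents against controls, and the averaged effect was -0.25 ± 0.07 with an adjusted p of 0.0273. The averaged call was kept in 6 of 12 fits without a library, with values of -0.21 without PLX3397 replicate 1 to -0.25 without sorafenib replicate 2 among those lost. The NAD carrier Slc25a51, the folate and FAD carrier Slc25a32 and the peroxisomal Slc25a17 were not called by edgeR in any contrast, with log2 fold changes of 0.16, 0.24 and 0.07 for both agents against controls.

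Slc25a45 showed the largest fall among called carriers of the averaged effect. It lies on chromosome 19 (5877808 to 5885766, plus strand), and its substrate is not named here. It had 3.09, 3.61 and 3.09 CPM with both agents, 3.39, 3.26 and 3.82 CPM with sorafenib, 6.19, 5.02 and 4.55 CPM with PLX3397 and 5.90, 6.48 and 4.28 CPM in controls. The 6 sorafenib libraries did not overlap the 6 without it. The averaged log2 fold change was -0.68 ± 0.14, or 0.625-fold, with an adjusted p of 0.00616, and it was kept without any 1 of the 12 libraries. Sorafenib alone against controls gave -0.67 ± 0.19 and both agents against PLX3397 gave -0.69 ± 0.19, with adjusted p of 0.0716 and 0.0694. For both agents against controls the value was -0.77 ± 0.19 with an adjusted p of 0.0168, lost without control replicate 2 (-0.64) or replicate 1 of both agents (-0.73). Its promoter window is printed as that of the carrier with the steadiest fall, and it held none of the 4 motifs, so it has no capitals.
Slc25a45, chr19:5877572-5877821, plus strand: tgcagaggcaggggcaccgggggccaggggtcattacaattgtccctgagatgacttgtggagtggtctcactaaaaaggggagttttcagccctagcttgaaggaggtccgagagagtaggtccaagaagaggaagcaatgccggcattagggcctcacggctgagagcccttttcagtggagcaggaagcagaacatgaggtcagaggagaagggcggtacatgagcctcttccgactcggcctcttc

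Of the other 7 carriers with no substrate named, Slc25a48 and Slc25a54 were not tested and the rest were not called. Slc25a34, the fifth highest carrier, had 140.25, 155 and 179 CPM with both agents, 149.8, 154 and 207 CPM with sorafenib, 160.2, 161 and 144 CPM with PLX3397 and 169.9, 200.4 and 192 CPM in controls. The PLX3397 libraries lay below all controls, and the sorafenib libraries spread from below to above them. Its log2 fold change was -0.25 ± 0.12 for both agents against controls, with an adjusted p of 0.192.

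Slc25a46 was higher in both sorafenib groups than in controls, and the PLX3397 libraries lay above the controls too. The protein sits in the outer membrane, where it takes part in mitochondrial shape and lipid exchange. It had 68.1, 73.4 and 64.1 CPM with both agents, 62.3, 71.8 and 69.3 CPM with sorafenib, 60.6, 63.5 and 68.1 CPM with PLX3397 and 52.1, 52.4 and 51.5 CPM in controls. The controls overlapped no other group. The log2 fold change was 0.40 ± 0.08 for both agents against controls with an adjusted p of 0.00584, and 0.38 ± 0.08 for sorafenib alone with an adjusted p of 0.0262. PLX3397 alone against controls gave 0.30 ± 0.08 with an adjusted p of 0.361 in edgeR, where 0 genes of the table passed. The Wald test of DESeq2 gave 0.31 with an adjusted p of 0.0370, adjusted over 6069 genes against 18897 in edgeR. Both agents against PLX3397 gave 0.10 ± 0.08 with an adjusted p of 0.621, and the averaged effect was 0.24 ± 0.06 with an adjusted p of 0.0145. The interaction, the sorafenib effect with PLX3397 minus that without it, was -0.29 ± 0.11 with an adjusted p of 0.822. The call for sorafenib alone was lost without control replicate 2 (0.39), control replicate 3 (0.38) or any sorafenib library (0.34 to 0.44), whereas the calls for both agents and for the averaged effect were kept without any 1 library. Under library size only the averaged effect of Slc25a46 was 0.12 with an adjusted p of 0.145, and sorafenib alone gave 0.26 with an adjusted p of 0.0723. By limma on log2(FPKM + 0.5) these were 0.12 and 0.24, with adjusted p of 0.146 and 0.0707.

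**Figure D3:**
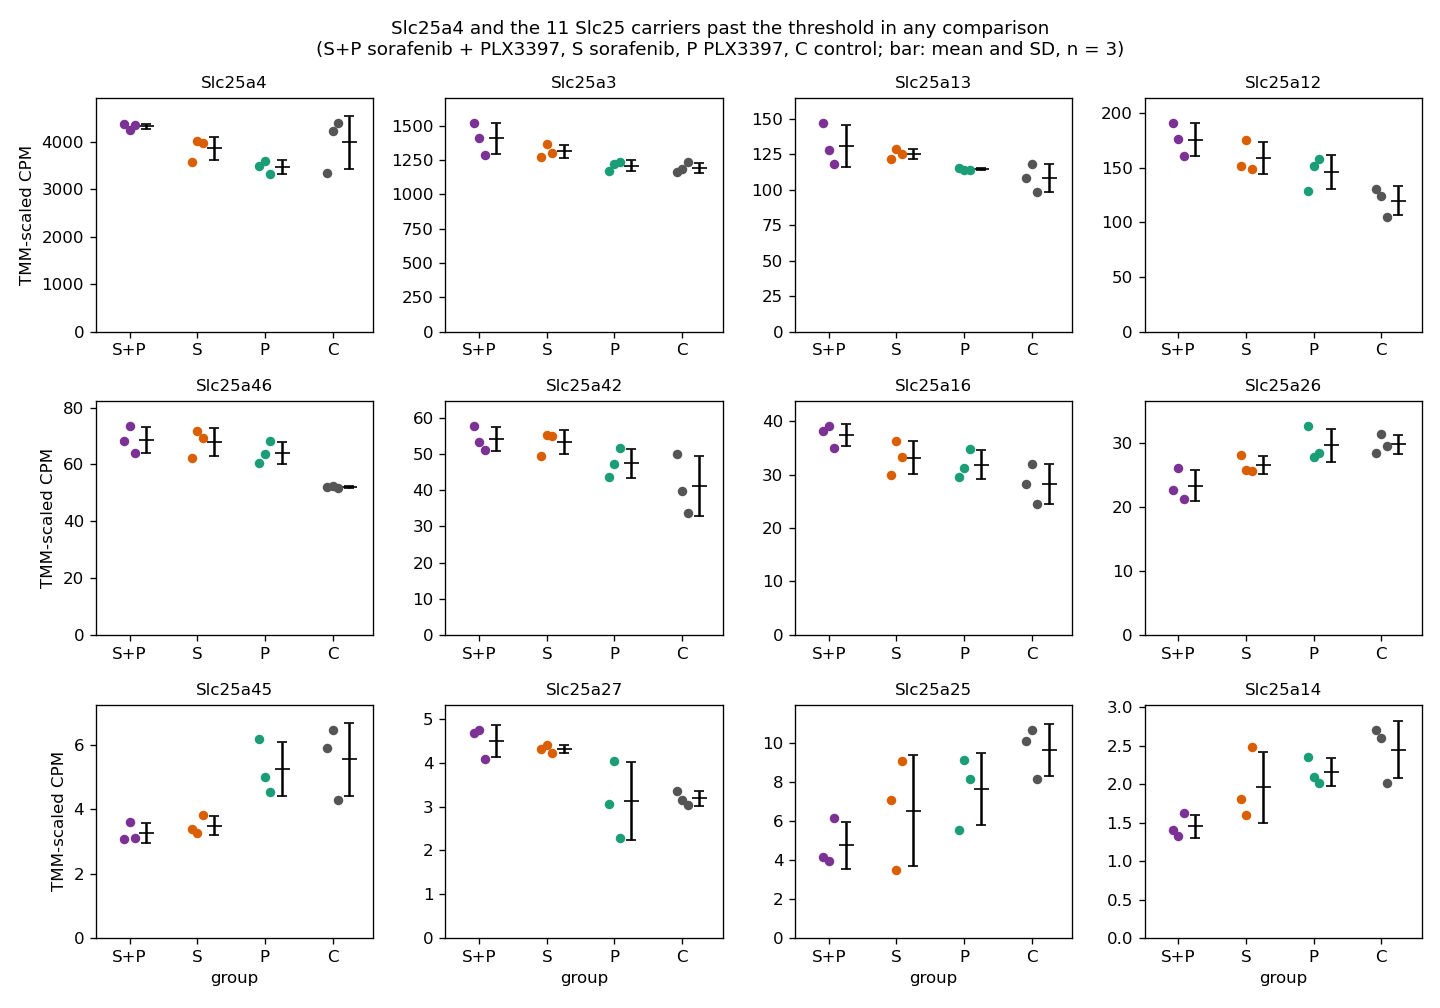
TMM-scaled CPM of Slc25a4 and the 11 carriers called in any comparison, in hearts given both agents (S+P), sorafenib (S), PLX3397 (P) and controls (C), 3 libraries each, with mean and SD beside them. The Slc25a45 libraries with sorafenib sit between 3.09 and 3.82 CPM, below the 4.28 to 6.48 CPM of those without it, and the Slc25a46 controls at 51.5 to 52.4 CPM lie under all other libraries.

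The 3 ADP/ATP carriers, among them the most abundant member, Slc25a4, were not called by edgeR with TMM scaling in any contrast. Slc25a4 (chromosome 8, 46206797 to 46211284, minus strand) had 4368, 4261 and 4355 CPM with both agents, 3587, 4028 and 3975 CPM with sorafenib, 3488.5, 3599 and 3318 CPM with PLX3397 and 3350.4, 4234 and 4397 CPM in controls. Control replicate 1 stood well under the other 2 controls, and the libraries with both agents all lay above the PLX3397 ones. The log2 fold change was 0.32 ± 0.10 for both agents against PLX3397 with an adjusted p of 0.0943, and -0.05 ± 0.10 for sorafenib against controls with an adjusted p of 0.824. The interaction was 0.37 ± 0.14 with an unadjusted p of 0.0169 and an adjusted p of 0.822.

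Slc25a5, the ADP/ATP carrier of dividing and non-muscle cells, had 178, 173 and 154 CPM with both agents, 159.7, 163 and 171 CPM with sorafenib, 189, 176 and 182 CPM with PLX3397 and 163, 179.7 and 196 CPM in controls. All groups overlapped the controls, and the averaged log2 fold change was -0.12 ± 0.06 with an adjusted p of 0.218. Of the markers of dividing cells, 5 of 5 were lower for the averaged effect, against 6.32% of all genes, with a median log2 fold change of -1.58. These markers had summed levels of 9.02 to 12.9 CPM with both agents, 13.9 to 17.6 CPM with sorafenib, 29.1 to 45.8 CPM with PLX3397 and 29.5 to 36.1 CPM in controls. Their part in the Slc25a5 values was not tested. Under library size only Slc25a5 was called lower for the averaged effect, at -0.23. On the FPKM scale the ratio of Slc25a5 to Slc25a4 was 0.0506 to 0.0584 with both agents, 0.0580 to 0.0636 with sorafenib, 0.0698 to 0.0785 with PLX3397 and 0.0606 to 0.0694 in controls. The ratios with both agents lay below those of the PLX3397 and control libraries. Slc25a31 had 1.33 CPM in replicate 1 of both agents and at most 0.430 CPM in the other 11 libraries, and it was not called.

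Slc25a3, the phosphate carrier, had 1518, 1412.5 and 1288 CPM with both agents, 1274, 1365 and 1303 CPM with sorafenib, 1167, 1223 and 1238 CPM with PLX3397 and 1162, 1185 and 1232 CPM in controls. On this scale the 6 sorafenib libraries lay above the 6 others. The log2 fold change was 0.24 ± 0.08 for both agents against controls with an adjusted p of 0.0485, and the averaged effect was 0.18 ± 0.05 with an adjusted p of 0.0453. In FPKM the means were 222 with both agents, 209.99 with sorafenib, 206 with PLX3397 and 208 in controls, and libraries overlapped. The calls were kept in 3 and 2 of the 12 fits without a library, and library size only gave 0.10 and 0.06. For comparison, 1 of 12 nuclear genes of oxidative phosphorylation was called higher for the averaged effect, against 5.62% of all genes. The median log2 fold change of the 12 was 0.02.

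The carboxylate carriers were not called in any contrast. Slc25a11 had 510.4, 504 and 462 CPM with both agents, 451, 480.5 and 482 CPM with sorafenib, 454, 474 and 425 CPM with PLX3397 and 419, 476 and 462 CPM in controls. Its groups overlapped, and the log2 fold change for both agents against controls was 0.12 ± 0.08 with an adjusted p of 0.314. Slc25a1, the citrate carrier, had 6.58, 5.14 and 7.45 CPM with both agents, 7.25, 6.04 and 5.99 CPM with sorafenib, 7.90, 6.43 and 6.42 CPM with PLX3397 and 8.84, 7.45 and 7.17 CPM in controls. Its log2 fold change was -0.28 ± 0.16 for sorafenib against controls, with an adjusted p of 0.337. Slc25a10, the dicarboxylate carrier, gave 0.07 for both agents against controls.

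Among the ATP-Mg/phosphate carriers, 1 of 3 tested was called. Slc25a25, a calcium-regulated ATP-Mg/phosphate carrier, had 4.15, 3.97 and 6.14 CPM with both agents, 7.05, 3.46 and 9.06 CPM with sorafenib, 5.56, 9.14 and 8.16 CPM with PLX3397 and 10.1, 10.7 and 8.12 CPM in controls. The libraries with both agents lay below all controls, whereas the sorafenib libraries spread widely. Its log2 fold change against controls was -1.02 ± 0.30 with an adjusted p of 0.0394, kept in 6 of 12 fits without a library and lost at -0.91 to -1.13 without any control, without PLX3397 replicate 3 or without replicate 1 or 2 of both agents. Its relatives Slc25a23 and Slc25a24 were not called by edgeR with TMM scaling, at -0.18 and 0.19 for the same contrast. Slc25a23 was called lower under library size only, at -0.32 with an adjusted p of 0.0184, and by limma on log2(FPKM + 0.5), at -0.30 with an adjusted p of 0.0211. It was called lower for the averaged effect under both of these too. Slc25a24 had 8.25, 8.18 and 9.10 CPM with both agents, 9.21, 8.401 and 7.82 CPM with sorafenib, 9.32, 9.21 and 10.2 CPM with PLX3397 and 9.05, 7.02 and 6.25 CPM in controls.

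Of the uncoupling-protein-like carriers, Slc25a27 was called higher and Slc25a14 lower, in different contrasts. Slc25a27 had 4.67, 4.76 and 4.09 CPM with both agents, 4.33, 4.41 and 4.22 CPM with sorafenib, 3.06, 4.05 and 2.28 CPM with PLX3397 and 3.37, 3.15 and 3.04 CPM in controls. The 6 sorafenib libraries lay above the 6 others, by a narrow margin. Its averaged log2 fold change was 0.48 ± 0.14 with an adjusted p of 0.0396, kept in 3 of 12 fits without a library. Slc25a14 had 1.40, 1.33 and 1.62 CPM with both agents, 1.80, 1.59 and 2.48 CPM with sorafenib, 2.36, 2.10 and 2.02 CPM with PLX3397 and 2.71, 2.60 and 2.02 CPM in controls. The libraries with both agents lay below every PLX3397 and control library. Its log2 fold change against controls was -0.75 ± 0.24 with an adjusted p of 0.0460, also kept in 3 of 12 such fits. Slc25a30 gave 0.03 in that contrast.

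The carriers of iron, glycine, glutathione and other amino acids were not called by edgeR with TMM scaling in any contrast. Slc25a28, mitoferrin-2, had 21.7, 21.5 and 25.9 CPM with both agents, 22.7, 21.8 and 24.6 CPM with sorafenib, 20.9, 20.9 and 18.6 CPM with PLX3397 and 24.6, 26.1 and 26.9 CPM in controls. The PLX3397 libraries lay below all the others, with a log2 fold change against controls of -0.36 ± 0.10 and an adjusted p of 0.361. Slc25a37, mitoferrin-1 of red cell precursors, had 23.5, 20.5 and 17.0 CPM with both agents, 19.0, 18.6 and 17.4 CPM with sorafenib, 13.7, 17.6 and 18.9 CPM with PLX3397 and 19.97, 17.1 and 13.0 CPM in controls. Its groups overlapped, with an averaged log2 fold change of 0.21 ± 0.11 and an adjusted p of 0.259. Of the erythroid markers, 4 of 8 were higher for the averaged effect, against 5.62% of all genes, with a median log2 fold change of 0.65. These markers had summed levels of 2403 to 4297 CPM with both agents, 2344 to 3543 CPM with sorafenib, 1610.4 to 1927 CPM with PLX3397 and 1930.1 to 2592.5 CPM in controls. Their part in the Slc25a37 values was not tested.

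Slc25a39, a glutathione carrier, had 81.1, 81.1 and 75.01 CPM with both agents, 78.3, 74.9 and 85.9 CPM with sorafenib, 82.4, 79.9 and 86.4 CPM with PLX3397 and 82.5, 84.6 and 88.3 CPM in controls. The libraries with both agents lay just under the controls, at a log2 fold change of -0.11 ± 0.07, and its averaged effect was called lower under library size only, at -0.19. Slc25a38, which supplies glycine for heme synthesis, had 21.0, 22.8 and 22.6 CPM with both agents, 24.1, 23.2 and 22.8 CPM with sorafenib, 24.8, 22.2 and 19.7 CPM with PLX3397 and 24.8, 28.7 and 27.7 CPM in controls. Both sorafenib groups lay below the controls. PLX3397 alone against controls gave a log2 fold change of -0.28 ± 0.10, with an adjusted p of 0.361. For both agents against controls it was -0.29 ± 0.10, with an adjusted p of 0.0571. Slc25a38 was called lower in that contrast by the Wald test of DESeq2 (adjusted p 0.0397), under library size only (-0.42, adjusted p 0.0129) and by limma on log2(FPKM + 0.5) (-0.40, adjusted p 0.0108). Slc25a44, the branched-chain amino acid carrier, had 20.9, 21.4 and 20.8 CPM with both agents, 17.996, 17.9 and 19.8 CPM with sorafenib, 17.3, 20.3 and 18.6 CPM with PLX3397 and 20.8, 19.0 and 18.7 CPM in controls. Slc25a29, the carrier of basic amino acids, had 7.19, 7.02 and 9.07 CPM with both agents, 6.57, 6.36 and 7.05 CPM with sorafenib, 5.78, 5.76 and 7.93 CPM with PLX3397 and 7.53, 5.00 and 7.85 CPM in controls. Between both agents and sorafenib these 2 gave log2 fold changes of 0.18 ± 0.09 and 0.22 ± 0.19, the highest of that contrast among carriers of at least 1 FPKM.

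Further members are given by their log2 fold change for both agents against controls, none of them called by edgeR in any contrast. The pyrimidine nucleotide carriers Slc25a33 and Slc25a36 were at 0.07 and 0.13. The ornithine carrier Slc25a15 was at 0.18 and the second glutathione carrier, Slc25a40, at 0.33. Without a substrate named, Slc25a35 was at -0.24 and Slc25a47 at 0.19, and the low Slc25a43 and Slc25a53 were at -0.46 and -0.45. The low Slc25a21 was at 0.21.

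**Figure D4:**
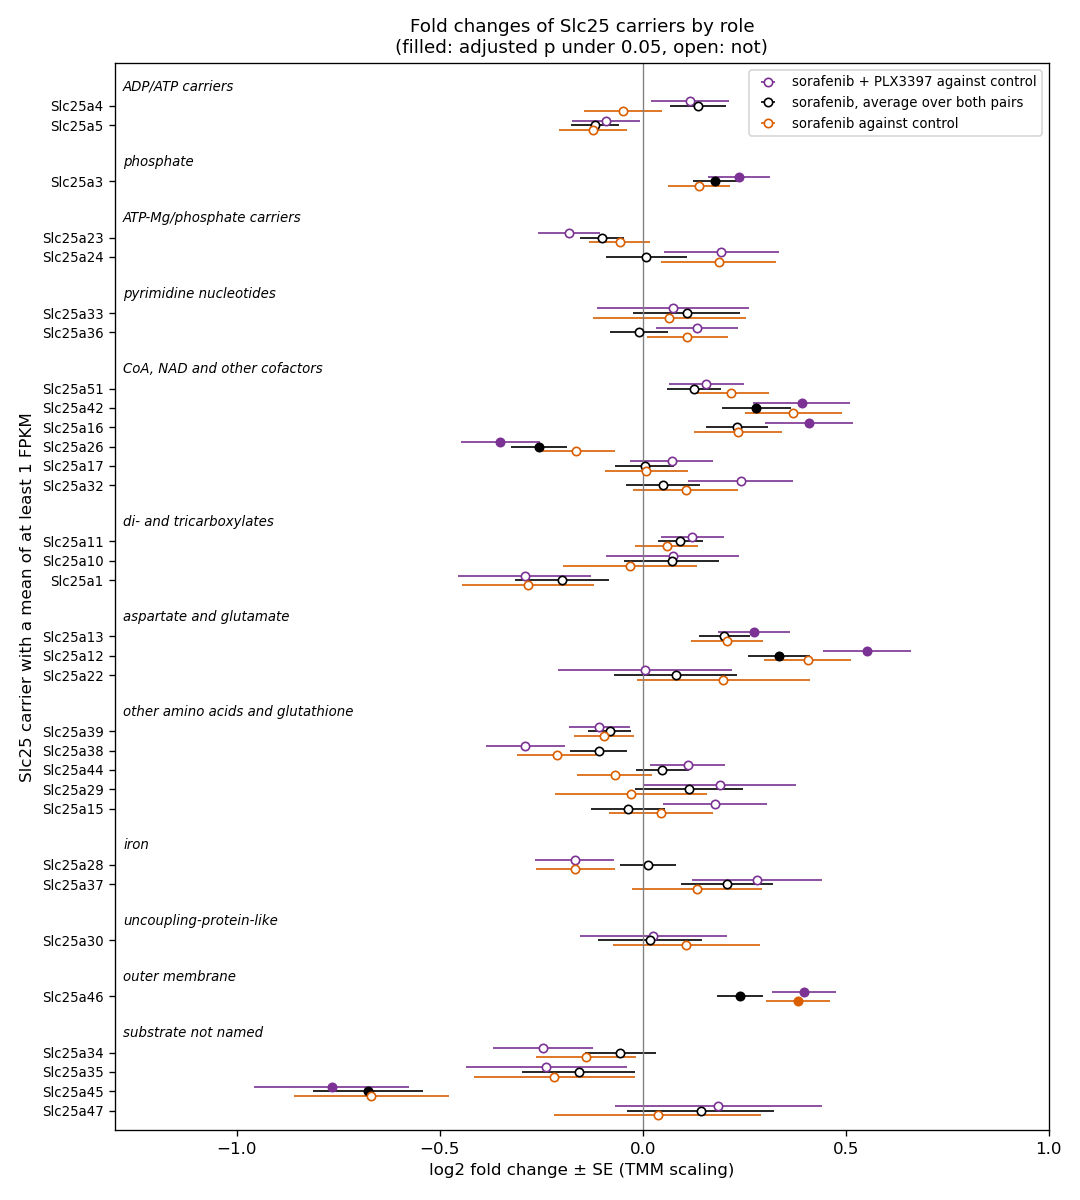
log2 fold change with SE (TMM scaling) of 32 carriers with a mean of at least 1 FPKM, by role, for both agents against controls, the averaged sorafenib effect and sorafenib against controls; filled points passed an adjusted p of 0.05. Slc25a12 and Slc25a45 lie farthest from 0 among the filled points, at 0.55 and -0.77 for both agents.

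By edgeR over all libraries, PLX3397 itself gave no call among the carriers. Against controls edgeR called 0 of 42 carriers and 0% of all genes. At an unadjusted p under 0.05 there were 8 carriers and 12.3% of all genes. The Wald test of DESeq2 called 2 carriers, Slc25a46 higher and Slc25a28 lower. Without PLX3397 replicate 1, edgeR called 1 carrier and 520 genes in all, 204 higher and 316 lower. Over all libraries the Wald test called 100 of the 6069 genes it gave an adjusted p, where edgeR adjusted over 18897. The highest and lowest log2 fold changes among carriers of at least 1 FPKM were 0.36 for Slc25a24, 0.30 for Slc25a46, -0.28 for Slc25a38 and -0.36 for Slc25a28. With both agents against sorafenib 0 carriers and 0% of all genes passed in edgeR. An unadjusted p under 0.05 was found for 0 carriers and 6.43% of all genes, and the Wald test of DESeq2 called 0 carriers. The interaction likewise had 0 carriers and 0% of all genes. Here 3 carriers and 5.82% of all genes had an unadjusted p under 0.05, and the Wald test called 0 carriers.

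Spread within groups was given by the SD over the 3 libraries of a group, pooled over all groups as the root of the mean variance. The median within-group SD of log2 CPM was 0.139 over the 33 carriers of at least 1 FPKM and 0.152 over all genes of that level. Slc25a21, Slc25a43 and Slc25a31 varied most, at 1.43, 1.16 and 0.946. On the FPKM scale the ratio of Slc25a13 to Slc25a12 had a geometric mean of 1.43 with both agents, 1.52 with sorafenib, 1.52 with PLX3397 and 1.75 in controls. Slc25a29 and Slc25a47 lie head to head on chromosome 12 with 162 bases between them, and their strand use in counting is not known. The pseudogene Slc25a5-ps was at most 0.0254 FPKM.

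Other genes of mitochondrial transport were tested beside the carriers. Of 7 genes that import carriers into the inner membrane, 0 were called by edgeR in any contrast. Of 21 other transport proteins, 2 were higher and 2 lower for both agents against controls, where 16.1% of all genes were called. Sfxn2 was among the higher ones at 0.80, and the lower ones were Smdt1, a subunit of the calcium uniporter, at -0.37 and Mpc2, of the pyruvate carrier, at -0.31. Of 4 tested carrier-like genes outside the family symbol, Mtch1 was lower in that contrast at -0.27. Beside the carriers, 4 of 8 cardiomyocyte markers were higher and 10 of 10 macrophage markers lower for the averaged effect, with medians of 0.27 and -1.35. Of all genes, 5.62% were higher and 6.32% lower there. A log2 fold change above 0 was found for 6 of the 8 cardiomyocyte markers. The part of these markers in the carriers' values was not tested. Of the 4 atrial markers none passed for the averaged effect or for both agents against controls. Their summed level was 235 to 380 CPM with both agents, 223, 285 and, in replicate 1, 2149 CPM with sorafenib, 239 to 415 CPM with PLX3397 and 650.2 to 1390 CPM in controls. All libraries with both agents and all PLX3397 libraries lay below every control, and the part of atrial content in the carriers' values was not tested.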

How the data were processed

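Poly(A) RNA from hearts was sequenced in 12 libraries. Per the file headers, the authors deposited, gene by gene, an estimated count and an FPKM value in every library. The build was mm10 and the tools named are DESeq2 and edgeR, per the submitters' processing notes. Aligner, counting program, use of strand and versions were not stated. All deposited estimated counts are whole, and low values piled up at multiples of 4 (12143 values equal 4, 5303 equal 3 and 3364 equal 5), so 1 count may not be 1 fragment. Values of overlapping or near-identical genes are therefore uncertain. The deposited FPKM values, scaled by the authors for length and library size, were used for levels between genes.

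The test used edgeR 4.0.16 (R 4.3.3), with filterByExpr (minimum count 10, minimum total 15), TMM, and a robust quasi-likelihood fit of 1 mean per group to all 12 libraries, with 7 contrasts. P-values were two-sided, adjusted by the Benjamini-Hochberg method over 18897 genes and called under 0.05. SE were derived from the F statistic. Groups came from the sample titles. The members, gene lists and contrasts were chosen with earlier results of these data known. The model assumed counts, and the estimated counts were already whole. It was tested on simulated counts. Values per library are given for carriers called in any contrast, the 8 highest by mean FPKM, and the 2 highest and 2 lowest log2 fold changes per contrast where the mean reached 1 FPKM. Some genes of the family and of the lists are not reported here. The alternatives were no filter, at least 1 CPM in 3 libraries, DESeq2 1.42.0 (size factors or Wald test), limma 3.58.1 on log2 FPKM plus 0.5 or 0.1 (mean 0.1 FPKM or more), a replicate block, only the groups compared, counts divided by 4, leaving out mitochondrial genome genes, and leaving out each library. Library size only was added after the data were seen. Promoters were the 250 bases before the RefSeq start (GRCm38.p6).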

Additional observations from a re-analysis of the deposited data

How the results depend on the processing

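Counts of called carriers moved by more than 1.5 times under these settings. For sorafenib against controls (1) the count was 4 with the DESeq2 Wald test, 2 with counts divided by 4 and 2 with the stricter filter. All genes called there went from 500 to 1739 of 16315, 912 of 15456 and 772 of 14474, in the same order. Between both agents and PLX3397 (0) it was 4 with the Wald test and 2 with library size only or limma on log2 FPKM plus 0.5 or plus 0.1. Over all genes 611 calls became 1207, 726, 615 and 641 in that order. For PLX3397 against controls (0) it was 2 with the Wald test, which called 100 of the 6069 genes it gave an adjusted p. Between both agents and controls (10) it was 6 with no filter and 6 with the replicate block. For the averaged effect the alternatives other than left-out libraries gave 5 to 10 in place of 7. Without 1 library the counts ranged from 0 to 3 for sorafenib against controls, 0 to 1 for both agents against PLX3397, 3 to 7 for the averaged effect, 0 to 1 for PLX3397 against controls and 2 to 12 for both agents against controls, and stayed at 0 for both agents against sorafenib and for the interaction. The cause was not tested.

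Libraries with the same replicate number shared no visible deviation. Of 18 same-numbered pairs, 0 had deviations correlated above 0.1 (-0.10 to 0.06), and 1 of 12 libraries correlated best with its own number. The sample titles do not say whether libraries were paired, and these correlations cannot settle it. With the replicate block the averaged effect had 5 calls, sorafenib against controls 1 and both agents against controls 6. Over all genes the counts also moved with the tool, such as 1739 with the Wald test for sorafenib against controls, where edgeR called 500. Groups of 3 libraries limit the precision, and small changes of low carriers cannot be read at this depth.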
